A study of Mus musculus with 8 samples.

Results

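The transcripts described here encode 10 transcription factors: Fos, Fosb and Fosl2 of the Fos family, Jun, Junb and Jund of the Jun family, the related factors Atf3 and Batf, and the zinc finger factors Egr1 and Egr2. They were taken by gene symbol from the array annotation, with every probe set that names 1 of these genes alone, which gave 14 of the 45037 probe sets tested: 4 genes (Fosl2, Jun, Jund and Egr2) had 2 probe sets each and 6 genes had 1. The cells were macrophages from the peritoneal cavity of male C57BL6/J mice, drawn out by an injection of 3% thioglycolate, collected 4 days later and kept by adherence in medium with 10% serum. All mice carried the floxed allele of the mineralocorticoid receptor gene Nr3c2 (MR fl / fl); the knockout mice carried LysM cre as well, a Cre under the lysozyme promoter that is active in macrophages and also in neutrophils, and the control mice did not. The 4 groups of 2 Affymetrix arrays each were knockout cells with 1 µM corticosterone for 24 h, knockout cells without hormone, control cells with the same corticosterone treatment and control cells without hormone. The labels call the arrays of a group biological replicates but the series description says that each sample pools experiments done in triplicate, so the p-values measure the spread between these pools, which may be partly technical.

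Fos and Jun proteins bind DNA in pairs, held together by a leucine zipper, and such pairs form the factor AP-1. Atf3 and Batf have zippers of the same kind and join Jun proteins. The genes for most of these factors, and for Egr1 and Egr2, are immediate early genes: a signal through MAP kinases, serum response factor or CREB switches them on without new protein synthesis, and their RNAs are short lived. In macrophages AP-1 drives inflammatory and matrix protease genes, and the glucocorticoid receptor, which binds corticosterone as the mineralocorticoid receptor also does, is known to restrain AP-1 at such genes. RNA levels of these factors do not show the activity of the proteins, much of which is set by phosphorylation.

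The 8 macrophage markers averaged 12.19 to 12.25 log2 units on 7 of the arrays and 11.48 on control untreated replicate 2. Csf1r, a growth factor receptor gene, read 13.58 on that array and 13.52 to 13.59 on the others, but Spi1, a myeloid transcription factor gene, read 9.28 there, against 10.89 to 11.10, and Itgam 7.42, against 8.49 to 9.08. Nr3c2, the deleted gene, lay at 5.11 and 5.47 in knockout cells with corticosterone, at 5.54 and 5.82 in knockout cells without, at 6.39 and 6.13 in control cells with and at 6.39 and 8.46 in control cells without. Every knockout array was below every control array (knockout minus control -0.97 with corticosterone, limma adjusted p = 0.0369, and -0.71 without, adjusted p = 0.194, 7 arrays), though the place of the probe set relative to the deletion is not known here. Of 8 glucocorticoid-induced genes 7 rose with the hormone in knockout and 7 in control cells (limma adjusted p under 0.05, 7 arrays), and 1 in each with 8 arrays. Control untreated replicate 2 stood apart from the other 7 arrays. Its 3′ control probe set of Actb exceeded the 5′ one by 2.18 log2 units, against 0.41 to 0.62 on the others, a difference that grows as RNA breaks. Its 10 fibroblast and mesothelial markers averaged 9.15, against 6.95 to 7.36, and its 9 measured cell cycle genes 10.15, against 7.42 to 8.81. The fibroblast genes of the list were higher there, such as Pdgfra (12.05, against 7.73 to 8.57) and Lum (8.07, against 4.05 to 4.65). Of the mesothelial genes Wt1 was higher (6.63, against 4.25 to 5.26), but Msln (3.82) and Upk3b (5.36) lay within the range of the other arrays. The results below are therefore given first from 7 arrays, without that array, with 8-array values beside the differences that they move. The 7-array fit then has a lone untreated control array and assumes that it varies as the other groups do. Knockout untreated replicate 2 and knockout corticosterone replicate 1 leaned towards the omitted array in some fibroblast genes. Col1a2 read 9.68 and 9.69 on them, against 9.12 and 9.28 on their fellow replicates, and Pdgfra 8.57 and 8.28, against 8.22 and 7.73. Pdgfrb did not (5.74 and 5.54, against 5.80 and 5.64), nor did Dcn on the untreated array (6.58, against 7.46).

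The array that stands apart was displaced as a whole, and several of the 10 genes with it. Over all probe sets the median difference between the 2 untreated control arrays was 0.458 log2 units. Between the replicates of the other groups it was 0.087 to 0.112. On the array that stands apart 5 of the 14 probe sets lay over 1 log2 unit from control untreated replicate 1, 3 of them higher and 2 lower. The share of all probe sets that did so was not counted. Egr1 read 12.61 there and 9.91 on replicate 1. Fosb read 5.16 and 2.87, and the dimmer probe set of Fosl2 7.17 and 5.45. Batf read 5.88 and 8.10, and Junb 7.05 and 8.07. On the other 7 arrays Egr1 alone ranged over more than 1 log2 unit, by 1.24, and the remaining probe sets by 0.16 to 0.68.

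**Figure D1:**
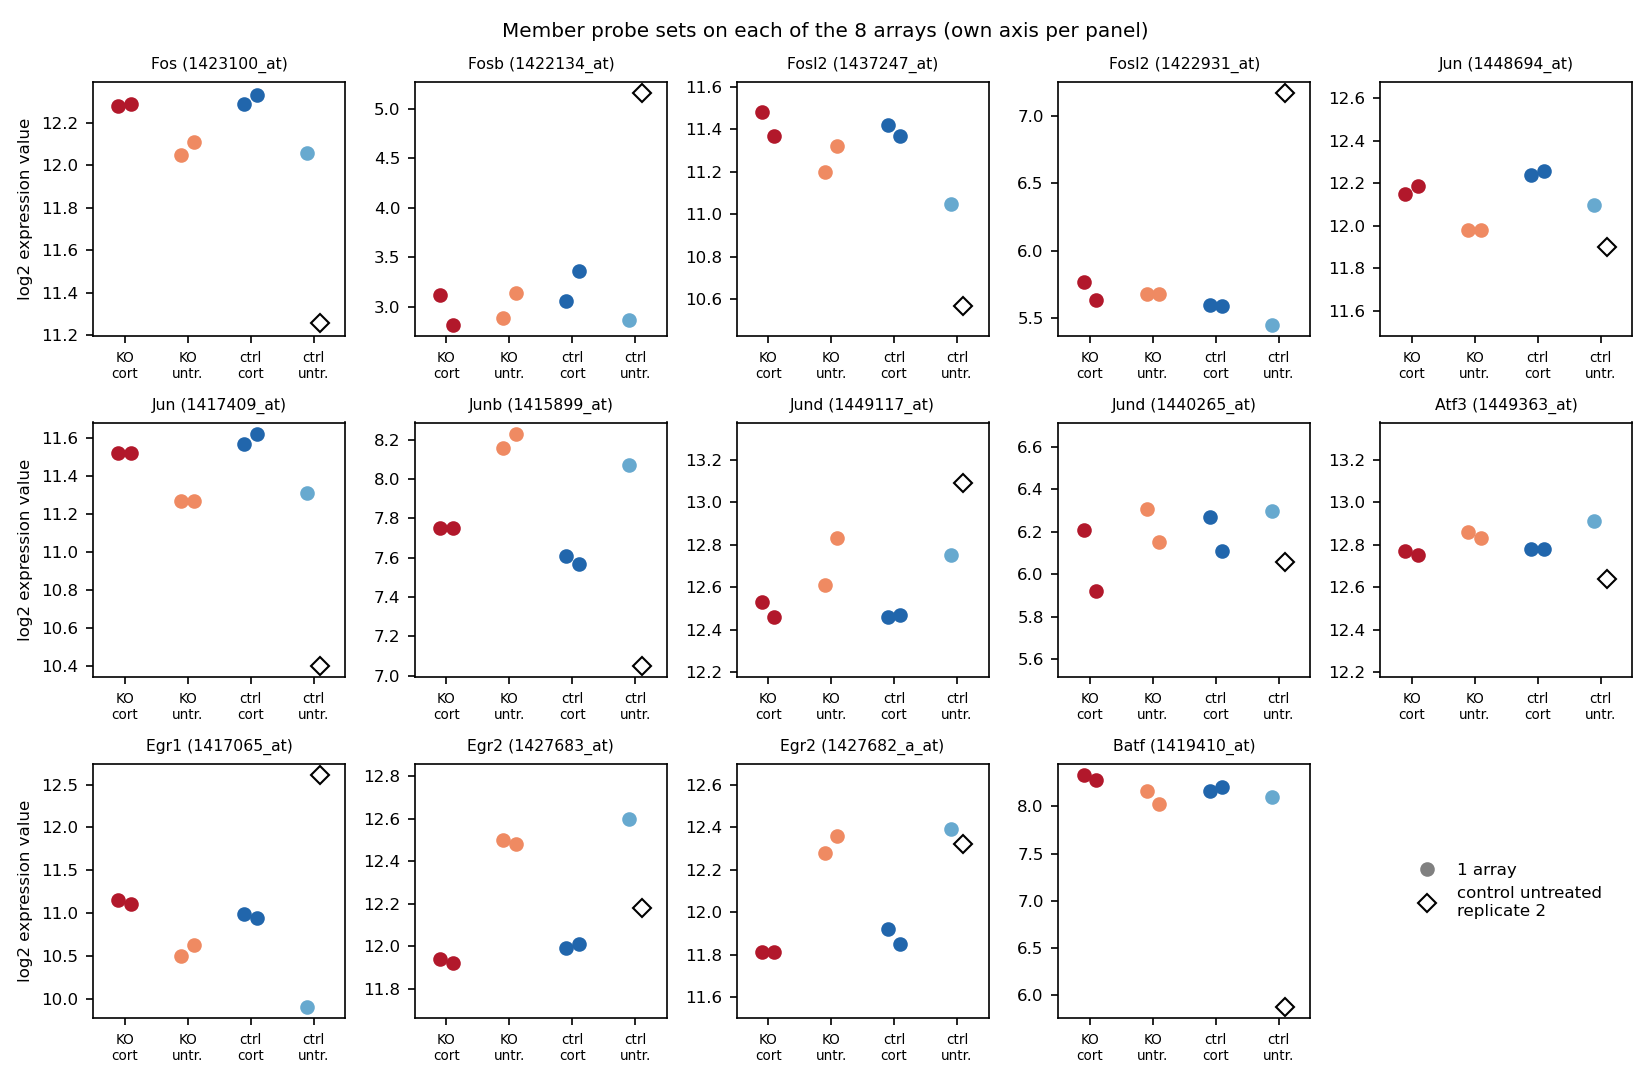
Log2 expression value (vertical axis, own scale in each panel) of each of the 14 probe sets on each of the 8 arrays, with the groups from left to right knockout with corticosterone, knockout untreated, control with corticosterone and control untreated. Filled circles are single arrays and the open diamond is control untreated replicate 2, which lies at 12.61 for Egr1 and at 5.88 for Batf, outside the range of the other 7 arrays.

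The stretch around the start of these genes is shown for 4 of them whose RNA changed with the hormone and whose window held a match to a motif of the signals named above. The windows run from 250 bases before the start to 50 after it, 5′ to 3′ on the strand of the gene. They come from RefSeq on build GRCm38.p6. In the source used 9 of the 10 genes had a window and Egr1 had none. Fos lies at chr12:85473640-85473939 on the plus strand, Jun at chr4:95052173-95052472 on the minus strand, Atf3 at chr1:191183284-191183583 on the minus strand and Egr2 at chr10:67537619-67537918 on the plus strand. Egr2 has 5 windows, and the one shown overlaps 2 of the others. Capitals mark each match to TGACGT (the core of the CREB and ATF site), to TGANNTCA (a longer spaced form of the AP-1 site, which can overlap the first), to TGANTCA (the usual AP-1 site), to the CArG box (the serum response factor site) and to GCGNGGGCG (the Egr site), on either strand.
Fos: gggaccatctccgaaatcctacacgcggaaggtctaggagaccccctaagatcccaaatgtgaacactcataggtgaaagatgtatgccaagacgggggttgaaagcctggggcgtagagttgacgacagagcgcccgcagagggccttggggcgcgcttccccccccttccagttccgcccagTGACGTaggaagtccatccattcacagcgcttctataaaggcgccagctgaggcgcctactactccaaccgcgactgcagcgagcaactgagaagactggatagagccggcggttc
Jun: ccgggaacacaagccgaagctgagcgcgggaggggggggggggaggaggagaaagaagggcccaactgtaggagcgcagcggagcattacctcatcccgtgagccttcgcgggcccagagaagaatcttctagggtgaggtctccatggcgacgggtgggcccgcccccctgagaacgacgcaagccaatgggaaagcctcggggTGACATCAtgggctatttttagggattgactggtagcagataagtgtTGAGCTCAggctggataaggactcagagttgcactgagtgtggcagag
Atf3: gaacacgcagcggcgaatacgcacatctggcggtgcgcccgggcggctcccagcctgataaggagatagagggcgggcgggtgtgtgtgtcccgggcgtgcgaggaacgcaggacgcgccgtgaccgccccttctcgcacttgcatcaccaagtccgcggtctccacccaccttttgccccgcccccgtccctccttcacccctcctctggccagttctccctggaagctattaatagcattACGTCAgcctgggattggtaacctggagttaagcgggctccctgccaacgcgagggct
Egr2: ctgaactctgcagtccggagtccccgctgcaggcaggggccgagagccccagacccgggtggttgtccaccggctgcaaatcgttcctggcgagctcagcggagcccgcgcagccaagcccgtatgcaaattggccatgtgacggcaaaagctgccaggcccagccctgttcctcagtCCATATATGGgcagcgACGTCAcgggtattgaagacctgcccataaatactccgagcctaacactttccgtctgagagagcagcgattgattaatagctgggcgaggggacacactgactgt
In Fos the capitals are TGACGT, 66 to 61 bases before the start. In Jun they are TGANNTCA at 2 places, from base -45 to -38 and from base 3 to 10. In Atf3 they are TGACGT on the opposite strand, from base -8 to -3. In Egr2 a CArG box runs from base -72 to -63 and TGACGT on the opposite strand from base -56 to -51. The motifs were chosen after the sequences were seen, and a match is only a description. TGACGT was in 4 of the 9 member windows (Fos, Atf3, Egr2 and Batf) and in 7.5% of all 32851 windows of this length, the CArG box in 1 of 9 and in 1.6%, TGANNTCA in 2 of 9 (Jun and Jund) and in 14.1%, and GCGNGGGCG in 2 of 9 (Fosb and Fosl2) and in 5.6%. TGANTCA was in none of the 9 and in 7.8% of all windows. The core of the glucocorticoid receptor site, AGAACA, was in none of the 9 and in 19.0% of all.

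With corticosterone some of the 10 genes rose and others fell, and each gene called in both genotypes went the same way in both. With 7 arrays, Egr1, Fos and Jun rose in knockout and in control cells, Junb, Jund, Atf3 and Egr2 fell in both, Fosl2 rose in control cells alone by the test, and Fosb and Batf were not called. In knockout cells 9 of the 14 probe sets were called (limma adjusted p under 0.05 with no minimum fold), 4 higher and 5 lower, against 9.14% of all probe sets. In control cells 10 were called, 5 higher and 5 lower, against 6.79% of all. All 9 called in knockout cells were called the same way in control cells. The share called was higher in a separate fit of brighter probe sets alone, with the adjustment made over these only. Of those with a mean of at least 6 log2 units it called 21.1% in knockout cells and 16.7% in control cells. Most changes were small, and only Egr1 in control cells reached 1 log2 unit. With 8 arrays none of the 14 was called by limma in either genotype. Of all probe sets 0.0577% and 0.0622% were called there. At an unadjusted p under 0.05 there were 2 of the 14 in knockout cells, against 3.65% of all, and 7 in control cells, against 8.18%. The differences in knockout cells are the same numbers with 8 arrays, since no knockout array was left out, and only the shared spread is wider. A fit of the 4 knockout arrays alone, which uses no control array, called 7 of the 14, all but Jund and Atf3 of the 9. Without the trend of the spread on the level, the 7-array fit called 4 in knockout cells (Egr1, Junb and both of Egr2) and 2 in control cells (Egr1 and 1 of Egr2).

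**Figure D2:**
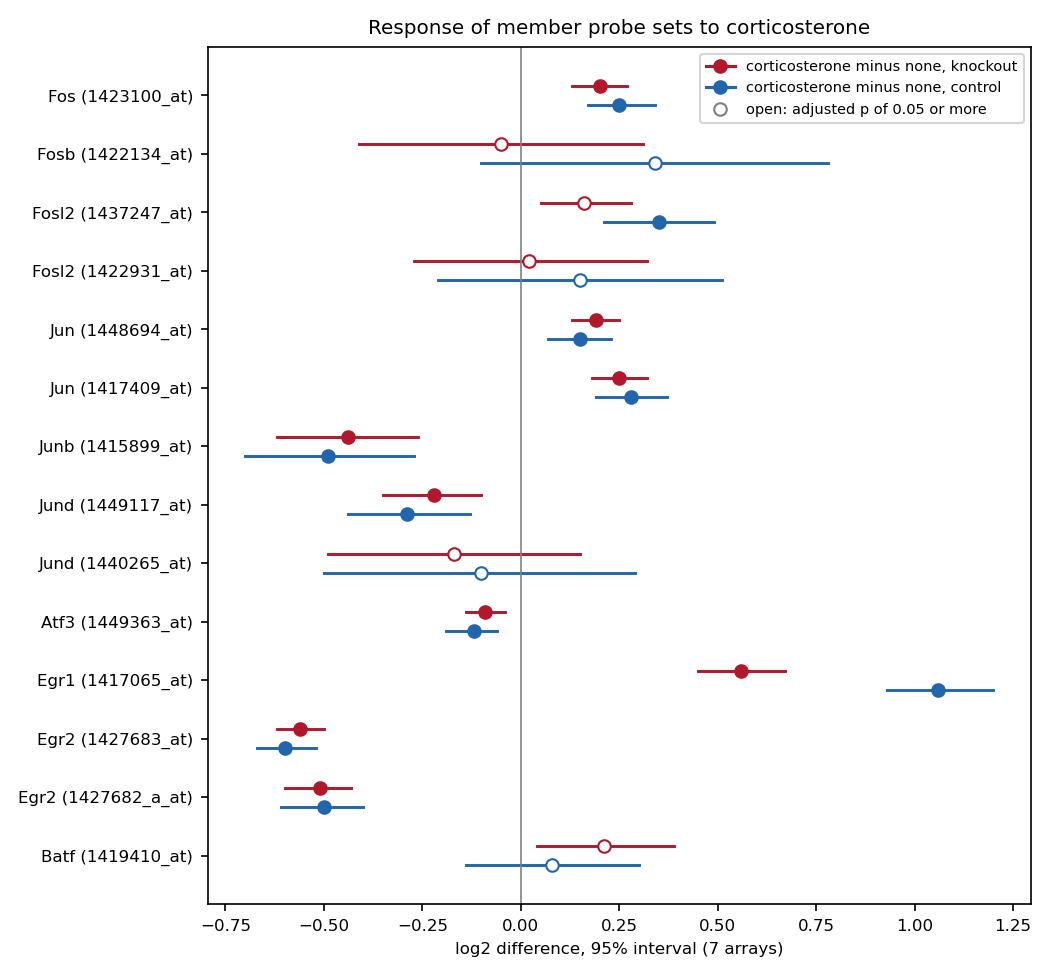
Log2 difference with corticosterone minus without (horizontal axis) of each of the 14 probe sets, from 7 arrays, in knockout cells (red, upper of each pair) and control cells (blue, lower). Circles are limma estimates with their 95% intervals, filled where the adjusted p is under 0.05; Egr1 lies farthest to the right, at 0.56 in knockout and 1.06 in control cells, and Egr2 farthest to the left, at -0.56 and -0.60 on its brighter probe set.

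Egr1, a zinc finger factor switched on by growth factors and stress, had the largest increase of the 10 genes in both genotypes. It read 11.15 and 11.11 in knockout cells with corticosterone, against 10.50 and 10.63 in knockout cells without. In control cells it read 10.99 and 10.95 with the hormone, against 9.91 and 12.61 without. The knockout arrays were separated by treatment, whereas the untreated control arrays lay on either side of all 6 others. With 7 arrays Egr1 rose by 0.56 log2 units in knockout cells (SE 0.05, 1.47-fold, limma adjusted p = 7.27e-05) and by 1.06 in control cells (SE 0.06, 2.09-fold, adjusted p = 6.59e-06). With 8 arrays the difference in control cells was -0.29 (SE 0.79, adjusted p = 0.839), so its direction there rests on which untreated control array is used.  The interaction, that is the response in knockout cells minus that in control cells, was -0.50 with 7 arrays (SE 0.08, unadjusted p = 9.6e-05, adjusted p = 0.336) and 0.85 with 8 (adjusted p = 0.765), and passed in neither. Among 1065 genes that also ranged over 1 log2 unit or more on the 7 arrays, those most like Egr1 by Pearson correlation were Hspb1, a small heat shock protein (r = 0.987), Nt5dc2 (r = 0.985) and Fads6 (r = 0.983). These are descriptions over 7 arrays of 4 groups.

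Egr2, a second factor of that family with roles in macrophage and lymphocyte differentiation, fell. Its brighter probe set, 1427683_at, read 11.94 and 11.92 in knockout cells with corticosterone, against 12.50 and 12.48 without, and 11.99 and 12.01 in control cells with it, against 12.60 and 12.18 without. Each array with hormone lay below each array without, control untreated replicate 2 included. With 7 arrays this probe set fell by 0.56 log2 units in knockout cells (SE 0.03, limma adjusted p = 1.27e-06) and fell by 0.60 in control cells (SE 0.03, adjusted p = 4.86e-06). The other probe set, 1427682_a_at, fell by 0.51 in knockout cells and fell by 0.50 in control cells, with limma adjusted p = 1.99e-05 and 0.000124. With 8 arrays the brighter probe set changed by -0.56 in knockout cells (SE 0.13, limma adjusted p = 0.629) and by -0.39 in control cells (SE 0.13, adjusted p = 0.447). With 8 arrays the changes of 1427682_a_at were -0.51 (adjusted p = 0.143) and -0.47 (adjusted p = 0.165), the smallest adjusted p of the 14 in each genotype. With 7 arrays Egr1 and Egr2 thus moved in opposite directions in each genotype. Of the genes for their shared co-repressors, Nab2 fell by 0.65 in knockout cells (limma adjusted p = 0.000324, 7 arrays) and fell by 0.60 in control cells. Nab1 rose by 0.39 in knockout cells (limma adjusted p = 0.0039, 7 arrays) and by 0.34 in control cells. On control untreated replicate 2 Nab1 read 7.30, against 9.25 on replicate 1. With 8 arrays neither gene passed.

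Lymphocyte markers moved with the hormone as well. With 7 arrays 4 of 5 measured B cell markers fell in knockout and 4 in control cells, where 7.27% and 5.22% of all genes fell, and the list averaged 6.54 and 6.64 in knockout cells with corticosterone, 7.93 and 7.76 without, 6.48 and 6.56 in control cells with and 7.55 and 6.58 without. Of 7 measured T and NK cell markers 4 fell in each genotype, and the list averaged 4.76 and 4.87 in knockout cells with corticosterone, 6.11 and 6.12 without, 4.93 and 4.94 in control cells with and 6.01 and 6.04 without. All arrays with hormone lay below all without for the T and NK cell list, and for the B cell list all but control untreated replicate 2 were separated in this way. The defining B cell gene Ms4a1 lay between 6.99 and 9.16 on the 7 arrays and read 7.61 on control untreated replicate 2, and Pax5 lay between 3.27 and 3.51 and read 3.58. Of 9 measured cell cycle genes 8 fell in each genotype, with list means of 8.14 and 7.91 in knockout cells with corticosterone, 8.72 and 8.81 without, 7.51 and 7.42 in control cells with and 8.20 and 10.15 without. Of 8 macrophage markers 3 rose in each genotype, and 2 fell in knockout and 1 in control cells. Among all genes 5.2% rose in knockout and 4.34% in control cells. Of 6 mast cell and eosinophil markers 2 rose in knockout and 3 in control cells, and of 6 neutrophil markers 1 fell in knockout cells. With 8 arrays 1 T and NK cell marker was called in knockout cells and no other gene of these lists in either genotype. In bulk RNA fewer cells of a type and less RNA per cell cannot be told apart, and the part of lymphocytes or of cell division in the lower Egr2 and Junb was not tested.

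Fos, the partner that turns Jun pairs into the classical AP-1, rose slightly. It read 12.28 and 12.29 in knockout cells with corticosterone, against 12.05 and 12.11 without, and 12.29 and 12.33 in control cells with it, against 12.06 and 11.26 without. All 4 arrays with hormone lay above all 4 without. With 7 arrays Fos rose by 0.20 log2 units in knockout cells (SE 0.03, 1.15-fold, limma adjusted p = 0.00224) and by 0.25 in control cells (SE 0.04, 1.19-fold, adjusted p = 0.00259). The 8-array difference in control cells was 0.65 (SE 0.24, adjusted p = 0.447). Fosl2, a Fos protein that lacks the strong activation region of Fos, was read by 2 probe sets. The brighter one, 1437247_at, read 11.48 and 11.37 in knockout cells with hormone, against 11.20 and 11.32 without, and 11.42 and 11.37 in control cells with hormone, against 11.05 and 10.57 without. It rose by 0.35 in control cells (SE 0.06, adjusted p = 0.00851, 7 arrays) and differed by 0.16 in knockout cells, which did not pass (adjusted p = 0.0904); the interaction was -0.19 (adjusted p = 0.877), so a difference between genotypes was not shown. In control cells Fosl2 no longer passed when control corticosterone replicate 1 was left out (0.32, adjusted p = 0.0764), and in knockout cells the difference passed without knockout untreated replicate 2 (0.22, adjusted p = 0.0274). The dimmer probe set, 1422931_at, lay at 5.45 to 5.77 on the 7 arrays, and was not called, with differences of 0.02 and 0.15. Fosb lay between 2.82 and 3.36 on the 7 arrays, and 16.2% of all probe sets had a lower mean. Fosb differed by -0.05 in knockout and 0.34 in control cells, with adjusted p = 0.918 and 0.424. The 8-array difference in control cells had the other sign for Fosb, at -0.81, and for the dimmer Fosl2 probe set, at -0.71, and was 0.59 for the brighter one (adjusted p = 0.447).

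Jun, the central Jun protein and the strongest activator of the family, rose on both of its probe sets. The brighter one, 1448694_at, read 12.15 and 12.19 in knockout cells with corticosterone, against 11.98 on both arrays without, and 12.24 and 12.26 in control cells with it, against 12.10 and 11.90 without. The other, 1417409_at, read 11.52 on both knockout arrays with hormone, against 11.27 on both without, and 11.57 and 11.62 in control cells with hormone, against 11.31 and 10.40 without. On both probe sets each array with hormone lay above each array without. With 7 arrays 1417409_at rose by 0.25 log2 units in knockout cells (SE 0.03, limma adjusted p = 0.000975) and by 0.28 in control cells (SE 0.04, adjusted p = 0.00224). The brighter probe set rose by 0.19 and 0.15 (adjusted p = 0.00187 and 0.0295). The call of the brighter probe set in control cells was lost without either control corticosterone array (adjusted p = 0.0948 and 0.159) or either knockout corticosterone array (adjusted p = 0.0649 and 0.0652). With 8 arrays no Jun difference passed, the lowest adjusted p being 0.447.

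Junb, a weaker activator that can hold Jun back, fell. It read 7.75 on both knockout arrays with corticosterone, against 8.16 and 8.23 without, and 7.61 and 7.57 in control cells with it, against 8.07 and 7.05 without. The arrays with hormone lay below those without in knockout cells, and in control cells they lay between the 2 untreated arrays. With 7 arrays Junb fell by 0.44 log2 units in knockout cells (SE 0.08, limma adjusted p = 0.0064) and fell by 0.49 in control cells (SE 0.10, adjusted p = 0.0152). In control cells Junb no longer passed when either array with hormone was left out (adjusted p = 0.0771 without replicate 1 and 0.108 without replicate 2), and with 8 arrays the difference there was 0.03 (adjusted p = 0.968). The call in knockout cells was lost in a fit of 5 arrays, chosen after seeing the data, that further omits replicate 2 of untreated and replicate 1 of treated knockout cells (-0.41, adjusted p = 0.0865). Jund, a Jun protein present in resting cells, fell on its bright probe set 1449117_at, which read 12.53 and 12.46 in knockout cells with hormone, against 12.61 and 12.83 without, and 12.46 and 12.47 in control cells with hormone, against 12.75 and 13.09 without. Each array with hormone was below each array without. Jund fell by 0.22 in knockout and fell by 0.29 in control cells with 7 arrays (adjusted p = 0.0358 and 0.0355), and the 8-array difference in control cells was -0.46 (adjusted p = 0.447). Both calls were fragile: that in knockout cells was lost in 5 of the 7 fits that leave out 1 array, among them that without knockout untreated replicate 2, where the difference was -0.12 (adjusted p = 0.0669), and that in control cells without any 1 of the 4 arrays with hormone (adjusted p = 0.0585 to 0.167). The dim Jund probe set, 1440265_at, at 5.92 to 6.31, was not called.

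Atf3, a stress-induced factor that damps inflammatory genes in macrophages, lay within 0.16 log2 units on the 7 arrays. It read 12.77 and 12.75 in knockout cells with corticosterone, against 12.86 and 12.83 without, and 12.78 on both control arrays with it, against 12.91 and 12.64 without. With 7 arrays Atf3 fell by 0.09 in knockout (SE 0.02, limma adjusted p = 0.0452) and fell by 0.12 in control cells (SE 0.03, adjusted p = 0.0311). Of the fits that leave out 1 array, all 6 that could be made without a knockout or control corticosterone array lost the call in knockout cells, and the 4 without an array with hormone lost it in control cells. In control cells the 8-array difference was 0.01. Batf, a factor without an activation region that pairs with Jun in lymphocytes and dendritic cells, read 8.33 and 8.28 in knockout cells with corticosterone, against 8.16 and 8.02 without, and 8.16 and 8.20 in control cells with it, against 8.10 and 5.88 without. The arrays with hormone lay above those without in each genotype, but neither difference passed with 7 arrays, at 0.21 (adjusted p = 0.152, 95% interval 0.04 to 0.39) in knockout and 0.08 (adjusted p = 0.762, 95% interval -0.14 to 0.30) in control cells. For Batf the 8-array difference in control cells was 1.19 (95% interval -0.44 to 2.82, adjusted p = 0.447). Groups that do not overlap are frequent at this size. With 7 arrays they were found for 11 of the 14 probe sets in knockout cells, against 47% of all probe sets, and for all 14 in control cells, where 1 untreated array is set against 2, against 76.1% of all. Between genotypes they were found for 10 of the 14 with corticosterone, against 39.6% of all, and for 10 without hormone, against 69.7% of all.

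The rising and the falling genes were set against each other across the arrays too. Over the 7 arrays, Pearson correlations among Egr1, Fos, Fosl2 and Jun were 0.50 to 0.96 in 6 pairs, those among Junb, Jund, Atf3 and Egr2 were 0.75 to 0.95 in 6 pairs, and those between a gene of each kind were -0.97 to -0.62 in 16 pairs. These are descriptions: the arrays share treatment groups, and the 2 kinds were formed by the direction of the hormone difference.

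Between genotypes only Egr1 of the 10 genes was called, without hormone and with 7 arrays. Without hormone Egr1 read 10.50 and 10.63 in knockout cells, against 9.91 and 12.61 in control cells. With 7 arrays Egr1 rose by 0.66 log2 units in knockout cells (SE 0.06, 1.58-fold, limma adjusted p = 0.000707), so that 1 of the 14 probe sets was called, against 0.977% of all. With 8 arrays the difference was -0.69 (SE 0.79, adjusted p = 0.626), and a fit of only the arrays compared, 2 knockout arrays and control untreated replicate 1, gave adjusted p = 0.0561. With corticosterone the Egr1 levels were 11.15 and 11.11 in knockout cells, against 10.99 and 10.95 in control cells. The knockout arrays were above both control arrays, but the difference of 0.16 (SE 0.05, 95% interval 0.05 to 0.27) did not pass (adjusted p = 0.348, 7 arrays). On control untreated replicate 2 Egr1, the cell cycle genes and the fibroblast markers were all high. Untreated knockout cells had cell cycle list means of 8.72 and 8.81, against 8.20 on control untreated replicate 1. The fibroblast and mesothelial means were 7.13 on both knockout arrays, against 7.07 on that control array, but the genes of that list differed both ways. In untreated cells Col1a2, Col3a1 and Pdgfra were higher in the knockout by 0.56, 0.48 and 0.42 (7 arrays). Wt1, Upk3b and Msln differed by -0.43, -0.28 and -0.20, and the rest of the list by -0.15 to 0.14. Without hormone 4 of 9 cell cycle genes rose in knockout cells and none of 10 fibroblast and mesothelial markers was called. Of all genes 1.18% rose in that comparison. The part of cell division or of fibroblasts in the higher Egr1 of untreated knockout cells was not tested.

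The other 13 probe sets did not differ by the test between genotypes. With corticosterone none of the 14 was called, against 0.795% of all, and the differences with 7 arrays ran from -0.24 for Fosb to 0.17 for Junb. Without hormone those of the 13 ran from -0.12 for the brighter Jun probe set to 0.23 for the dimmer Fosl2 probe set. The 95% intervals show how far the differences could lie from 0. For Fos they were -0.10 to 0.04 with and -0.06 to 0.11 without hormone with 7 arrays, and -0.62 to 0.56 and -0.16 to 1.01 with 8. With 7 arrays those of the brighter Egr2 probe set were -0.13 to -0.01 with and -0.18 to -0.04 without, and for the brighter Jun probe set -0.14 to -0.01 with and -0.19 to -0.04 without, which exclude 0 before adjustment over all probe sets. At an unadjusted p under 0.05 there were 4 of 14 with hormone, against 8.03% of all, and 4 of 14 without, against 12.3%. No interaction was called among the 14 with 7 arrays, against 0.00888% of all, and 2 had an unadjusted p under 0.05, against 5.67% of all. With 8 arrays limma called no probe set of the whole array in either genotype contrast or in the interaction. At an unadjusted p under 0.05 there were then 0 of the 14 and 1.18% of all for genotype with corticosterone, 1 and 4.69% for genotype without hormone, and 0 and 1.51% for the interaction. The numbers of probe sets behind these shares are 532, 2110 and 682.

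**Figure D3:**
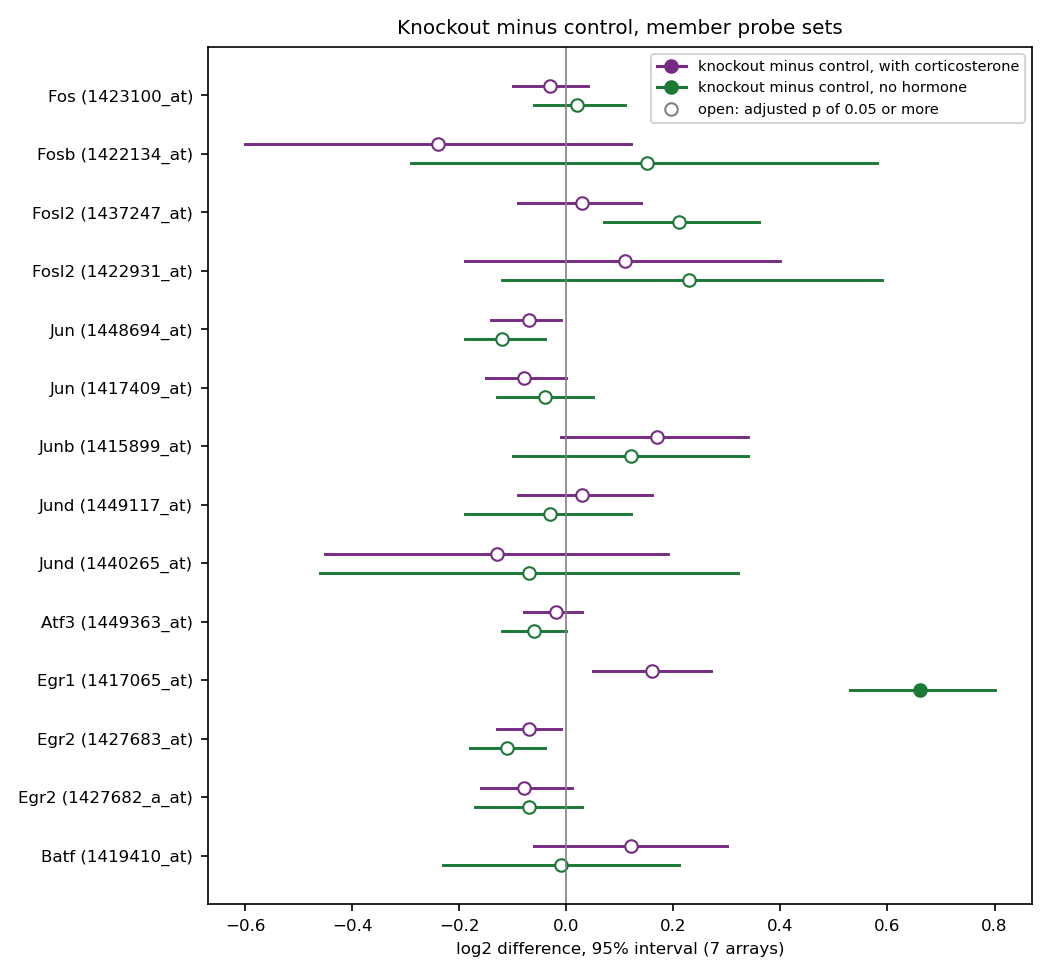
Log2 difference of knockout minus control cells (horizontal axis) of each of the 14 probe sets, from 7 arrays, with corticosterone (purple, upper of each pair) and without hormone (green, lower). Circles are limma estimates with 95% intervals, filled where the adjusted p is under 0.05; the sole filled circle is Egr1 without hormone, at 0.66.

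Related genes were read by the brightest probe set of each. Among 11 measured partners of AP-1 proteins outside the 10, 3 rose in knockout cells and 2 in control cells with 7 arrays, and none fell; the list's median difference was 0.035 and 0.093, against -0.019 and -0.005 over all 18193 genes. The largest change was that of Jdp2, a repressor that pairs with Jun, which read 10.94 and 10.86 in knockout cells with corticosterone, against 9.65 and 9.80 without, and 10.72 and 10.78 in control cells with it, against 9.66 and 10.87 without. Jdp2 rose by 1.18 log2 units in knockout (limma adjusted p = 1.59e-06) and 1.09 in control cells (adjusted p = 1.63e-05). In control cells the 8-array difference of Jdp2 was 0.49. Maf, a large Maf protein of macrophages, rose by 0.42 and 0.38 (adjusted p = 0.000134 and 0.00135), and Mafg, a small Maf protein, by 0.15 in knockout cells (adjusted p = 0.0405). Of all genes 5.2% rose in knockout and 4.34% in control cells with 7 arrays. None of the 11 partners passed with 8 arrays.

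Of 24 other immediate early genes 6 rose and 6 fell in knockout cells. In control cells the counts were 6 and 5. The median differences of the list were 0.006 and 0.105. Of all genes 5.2% rose and 7.27% fell in knockout cells, while 4.34% rose and 5.22% fell in control cells. Klf2, a factor that keeps lymphocytes and macrophages quiescent, fell by 1.22 in knockout and fell by 1.01 in control cells (limma adjusted p = 0.000116 and 0.00192). The orphan nuclear receptor gene Nr4a3 fell by 1.36 and fell by 0.91 (adjusted p = 0.000258 and 0.0134), and the kinase gene Plk2 fell by 0.55 and fell by 0.49 (adjusted p = 2.56e-05 and 3e-04), with an 8-array difference of 0.12 in control cells. Csrnp1, a nuclear protein gene, rose by 0.52 in both (adjusted p = 0.00188 and 0.00838). Serum response factor, Srf, rose by 0.29 and 0.43 (adjusted p = 0.0491 and 0.0288). Between genotypes Ier3 and Ccn1 were called. Ier3, which modulates survival under stress, read 9.36 and 9.38 in knockout cells with corticosterone, against 8.50 and 8.57 in control cells with it. Without hormone it read 9.18 and 9.26 in knockout cells, against 8.24 and 8.55 in control cells. Ier3 was higher on each knockout array than on each control array, by 0.84 with hormone (adjusted p = 0.000167) and 0.98 without (adjusted p = 0.000299, 7 arrays). Ccn1, a matricellular protein of fibroblasts and other adherent cells, was higher by 1.32 and 1.73 (adjusted p = 0.00101 and 0.000759), but read 11.45 on control untreated replicate 2 and 7.36 on replicate 1, against 8.92 to 9.38 in knockout cells. Csrnp1 read 5.42 on control untreated replicate 2 and 8.12 on replicate 1, against 8.59 and 8.68 in control cells with hormone. With 8 arrays none of the 24 passed in any contrast.

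With 7 arrays 5.2% of all genes rose and 7.27% fell in knockout cells, and 4.34% rose and 5.22% fell in control cells. Few of the kinases and factors that act on AP-1 were called, near these shares. Of 19 measured, 1 rose and 1 fell in knockout cells and 1 fell in control cells, with median differences of -0.061 and -0.049: Map2k3, a kinase of the p38 pathway, rose by 0.23 (limma adjusted p = 0.0101) and Mef2c fell by 0.17 (adjusted p = 0.0239) in knockout cells, and Rps6ka3 fell by 0.20 in control cells (adjusted p = 0.0151). In the other genotype Map2k3 differed by 0.21, Mef2c by -0.11 and Rps6ka3 by -0.10, so a difference between genotypes was not shown for these genes. Among 13 feedback inhibitors of MAP kinases 3 rose and 2 fell in each genotype, with median differences of -0.067 in knockout and 0.060 in control cells. Dusp1, which inactivates p38 and JNK and is a known glucocorticoid target, read 13.05 and 12.99 in knockout cells with corticosterone, against 12.33 and 12.41 without, and 13.06 and 13.15 in control cells with it, against 12.37 and 12.34 without. It rose by 0.64 and 0.73 (adjusted p = 4.8e-06 and 1.28e-05), and in control cells it passed with 8 arrays too (0.75, adjusted p = 0.0401). Dusp4 fell by 0.85 in knockout and fell by 0.67 in control cells. Dusp6, which acts on ERK, fell by 0.39 and fell by 0.57, while Spry2 rose by 0.33 and 0.25 (limma adjusted p = 0.000355 or below in knockout cells). With 8 arrays the differences in control cells were -0.25 for Dusp4, -0.65 for Dusp6 and 0.04 for Spry2 (limma adjusted p = 0.58, 0.171 and 0.874). None of these genes passed with 8 arrays in either genotype. Spry2 read 12.19 on control untreated replicate 2, above the 12.02 and 12.01 of control cells with hormone.

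Known AP-1 target genes went both ways, with 4 of 18 higher and 5 lower in knockout cells and the same counts in control cells, with median differences of -0.050 and -0.114. Vegfa, a vascular growth factor, fell by 1.00 in knockout and fell by 0.90 in control cells (limma adjusted p = 5.15e-05 and 0.000567), and Plaur, the urokinase receptor gene, fell by 0.54 and fell by 0.48 (adjusted p = 2.59e-05 and 0.000308), though its 8-array difference in control cells was 0.31. Ccl2, a monocyte chemokine, rose by 0.43 and 0.71 (adjusted p = 0.00016 and 3.73e-05) and Ccl3 by 0.22 and 0.45 (adjusted p = 0.00156 and 8.17e-05). Ccnd1, the gene of cyclin D1, fell by 0.42 in knockout cells and fell by 0.29 in control cells. Between genotypes Ccnd1 was higher in knockout cells with hormone, by 0.29 (adjusted p = 0.00515), and without, by 0.42 (adjusted p = 0.00197). Without hormone Ccl2, the matrix protease gene Mmp14 and the protease inhibitor gene Timp1 were higher in knockout cells as well, by 0.45, 0.76 and 0.42 (adjusted p = 0.00347, 0.0158 and 0.045). With 8 arrays none of these AP-1 target differences passed. The lists were not tested as lists.

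**Figure D4:**
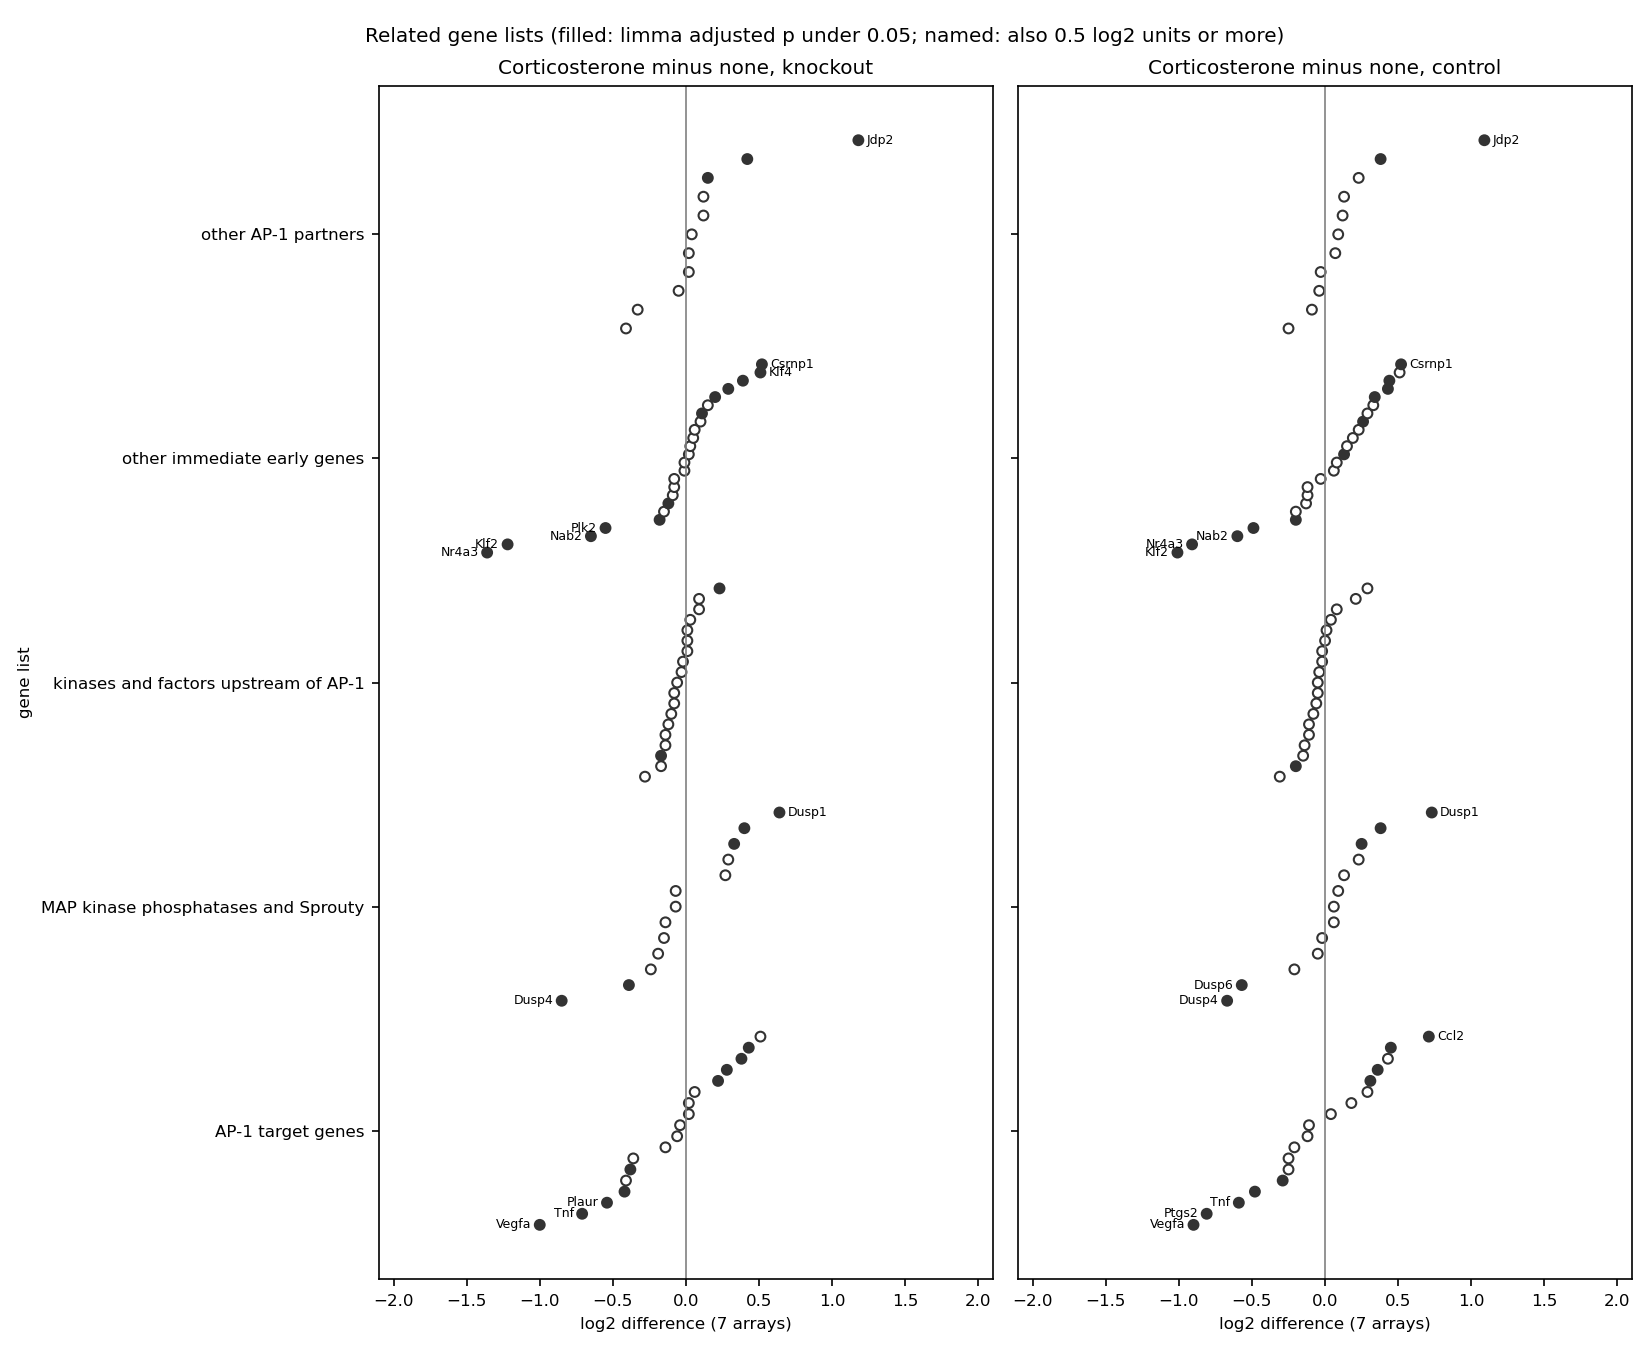
Log2 difference with corticosterone minus without (horizontal axis, 7 arrays) of the measured genes of 5 related lists (vertical axis), in knockout cells (left) and control cells (right). Each circle is 1 gene, sorted by its difference within its list, filled where the limma adjusted p is under 0.05 and named where the difference is also at least 0.5 log2 units either way; Jdp2 is farthest to the right in both panels, at 1.18 and 1.09.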

How the data were processed

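RNA of 8 samples was read on Affymetrix mouse arrays. The deposited values are log2 levels, 1 per probe set and array, made by the authors with RMA in R 2.7 per the submitters' processing notes. RMA subtracts background, equalises the distributions of the arrays and summarises probes, so values are relative within an array, low levels are compressed and no detection call is given. The number of arrays limits the precision. Of 45101 probe sets 64 controls were left out. Symbols came from the platform annotation and were updated by gene identifier to GRCm38.p6: 34945 probe sets named 1 gene, 932 several and 9160 none.

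All 45037 probe sets were fitted in R 4.3.3 by limma 3.58.1. The model had a coefficient for each of the groups, a shared spread moderated with a trend, and Benjamini-Hochberg adjustment over all of them. The 7-array fit left 3 residual degrees of freedom and the 8-array fit 4. The code was checked on simulated data. The members, the lists, the 7-array fit and the named genes (all members, up to 4 genes of smallest p per list and contrast, and the 3 genes most like a member that ranges over 1 log2 unit) were chosen with earlier results of these data known. Genes named beyond this rule (Nab1, Srf) were chosen after their values were seen. Alternatives were leaving out each array, no trend, array weights, a replicate block, only the arrays compared, a filter at a mean of 6, 1 probe set per gene and median centring.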

Additional observations from a re-analysis of the deposited data

How the results depend on the processing

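With 7 arrays, 358, 440, 4118, 3057 and 4 probe sets were called for genotype with corticosterone, genotype without hormone, corticosterone in knockout cells, corticosterone in control cells and the interaction. Without a variance trend these were 100, 64, 1688, 864 and 0, with 0, 4 and 2 members for genotype without hormone and the hormone in knockout and control cells. Fits of only the arrays compared gave 553 for genotype with hormone and 101 without (0 members); they were not run for the interaction. One probe set per gene gave 2502 and 1979 for the hormone in knockout and control cells. The 5-array fit gave 165 and 171 for genotype with and without hormone, 2127 for the hormone in knockout cells and 2 interactions. Leaving out 1 array gave 136 to 549, 218 to 952, 2203 to 4752, 1551 to 3994 and 2 to 7 in the order above, and 5 to 10 members in control cells. The lowest counts of probe sets came without an array with corticosterone.

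For 8 arrays, counts were 0, 0, 26, 28 and 0, with 0 members. Array weights gave 275 for genotype with corticosterone, 2666 (7 members) for the hormone in knockout cells and 10 in control cells. Only the arrays compared gave 553, 3159 (7 members) and 0. The filter at a mean of 6 gave 42 and 49 for the hormone in knockout and control cells. Leaving out 1 array gave 0 to 363, 0 to 26185, 0 to 4118, 0 to 26400 and 0 to 23378, with 0 members for genotype with corticosterone and 0 to 11, 0 to 9, 0 to 13 and 0 to 12 for the others. The highest came without control untreated replicate 1, except that 4118 came without replicate 2. Without replicate 2 the sign turned and the difference was called for Egr1 (0.66 for genotype without hormone and 1.06 for the hormone in control cells), and for Junb (-0.49) and Atf3 (-0.12) for the hormone in control cells. Called or not, 8 of the 14 probe sets for genotype without hormone, 6 for the hormone in control cells and 8 for the interaction differ in sign between 7 and 8 arrays. The share of all probe sets that did so was not counted, so these counts are not a result about the 10 genes. Over the fits that leave out 1 array Egr1 ran from -2.04 to 0.66 and from -1.64 to 1.06, Junb from -0.49 to 0.54 and Atf3 from -0.12 to 0.14.

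The replicate numbers were not shown to pair the samples: correlations of replicate differences between groups were -0.23 to 0.32. With a replicate block 229 probe sets were called for genotype without hormone with 7 arrays, and 2 and 0 for the hormone in knockout and control cells with 8. Crossing the knockout corticosterone numbers also gave 2 and 0 with 8 arrays. With 7 arrays the block lost the Atf3 calls in both genotypes and that of the brighter Jun probe set in control cells. Of all results under all alternatives, 52 calls were lost, 2 gained and 0 reversed with 7 arrays.

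Limits: each group has at most 2 pooled samples, 3 to 4 degrees of freedom remain, and small differences pass only through the spread shared over probe sets. Signal over background was not analysed here, so dim probe sets such as those of Fosb have no detection call.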
